A study of Mus musculus with 12 samples.

Results

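Livers of 3 wild-type mice treated with DEN were compared with livers of 3 wild-type mice without DEN, 6 of the 12 RNA-seq libraries of a series that also holds Otud3 knockout littermates. DEN, diethylnitrosamine, is an alkylating hepatocarcinogen that is made reactive by cytochrome P450 enzymes of hepatocytes. The DEN 30W-WT mice were male C57BL/6 mice that had 1 intraperitoneal injection of DEN in saline, 25 mg/kg, at 15 days of age and were killed 30 weeks later. For the No DEN-WT mice the labels give the C57BL/6 littermate background, the genotype and the absence of DEN, and do not state sex, age at collection or a saline injection, so DEN cannot be told apart from these if they differed. Both groups are littermates of knockout mice and carry no other stated allele or agent. The series describes the DEN tissue as liver cancer, while the sample labels say liver and do not say whether a piece held tumour. Each group has 3 independent mice, and the libraries were chosen by these labels alone. They hold 29668861 to 31111765 counts each, and 13701 genes are listed in both wild-type tables, of 14944 in any table of the series.

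The liver is built mainly of hepatocytes, arranged from a periportal zone, where urea and glucose are made, to a pericentral zone, where Wnt signalling keeps glutamine synthesis and much of the P450 activity. Sinusoidal endothelial cells, Kupffer cells and stellate cells lie around them. In mice, DEN given before weaning produces hepatocyte foci and tumours over months, more readily in males, and tumours often differ from each other in zonal genes, fetal genes and lipid metabolism.

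DEN was followed at 30 weeks by higher expression of inducible cytosolic chaperones, of sinusoidal endothelial genes, of the efflux pump genes Abcc4 and Abcb1a and of the P450 gene Cyp2a4; the calls of Abcc4 and Cyp2a4 were lost with limma-voom. Expression of the cytokine-signalling inhibitor Socs3, the repressor Bcl6 and the cystathionine enzyme gene Cth was lower. The calls of Socs3 and Bcl6 were lost without DEN 30W-WT replicate 2, and that of Socs3 with limma-voom as well. With only the wild-type libraries in the fit, no gene was called. Of 12909 genes tested, 354 passed (2.74%), 179 higher (1.39%) and 175 lower (1.36%) with DEN, at a Benjamini-Hochberg adjusted p under 0.05 in edgeR's quasi-likelihood test. "Rose" and "fell" are used below only of genes that passed. Without DEN 30W-WT replicate 2, which stood apart, 443 of 12962 genes passed (3.42%), 222 higher (1.71%) and 221 lower (1.7%). The 2 counts share 242 genes (1.87% of those tested), all in the same direction, which is 68.4% of the 354 and 54.6% of the 443. The median log2 fold change of all genes was 0.03, and 0.00 without that library. With libraries scaled by their size alone, in place of the TMM factors used here, 92.4% of the genes that passed were higher with DEN, against 50.6%.

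All 6 libraries were liver by their markers. Alb, albumin, was at 64609, 70960 and 50536 CPM in DEN 30W-WT replicates 1, 2 and 3, against 71105, 67490 and 80414 CPM in No DEN-WT replicates 1, 2 and 3. CPM, a gene's counts per 1e+06 counts of its library after TMM scaling, is used for levels throughout, and values are given in the order of replicates 1, 2 and 3. Otud3, intact in both groups, was at 18.4, 10.8 and 15.6 CPM with DEN and 13.6, 13.2 and 12.9 CPM without. DEN 30W-WT replicate 2 stood apart from the other 5. On the first principal component, 70.72% of the variance, it lay at 122.5, and the others between -37.87 and -8.03. In 661 of 11492 genes with a mean CPM of at least 1 it lay at least 2 log2 units beyond all the others, while no other library did so in more than 3 genes. The 2 other DEN livers were the most alike pair of either group, with a chi-square per degree of freedom of 27.9 over genes, against 46.25 to 87.5 between No DEN livers and 748.3 and 785.1 between these DEN livers and replicate 2.

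**Figure D1:**
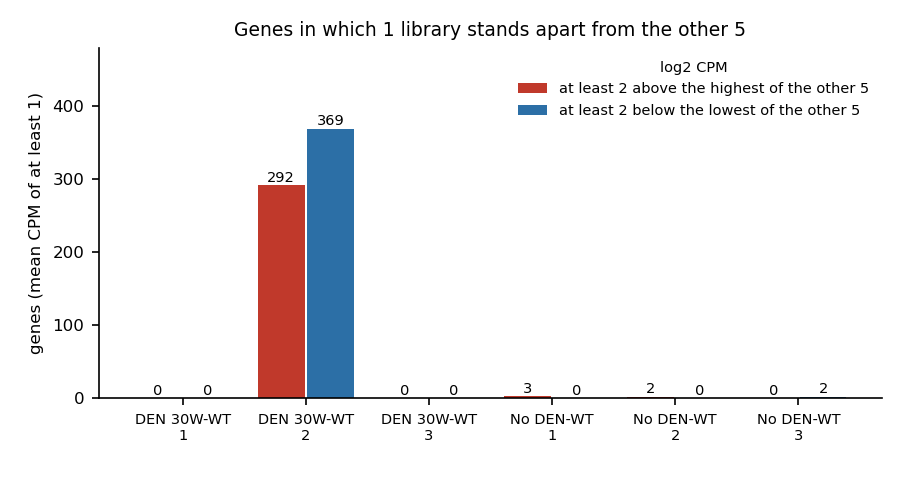
Number of genes, of those with a mean CPM of at least 1, in which a library's log2 CPM lies at least 2 above (red) or below (blue) all of the other 5; libraries run along the x axis and the bars are counts of genes. DEN 30W-WT replicate 2 has 292 such genes above and 369 below, and each other library has at most 3.

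Zonal, sex-biased and fetal genes were among those in which replicate 2 stood apart, while its albumin level lay within the range of the other livers. Cyp2e1, the pericentral P450 that activates DEN, was at 7597, 69.1 and 8241 CPM with DEN and 8575, 9203 and 9037 CPM without. Glul, glutamine synthetase, was at 894, 32.3 and 987 CPM with DEN and 1132, 1130 and 795 CPM without. Slc1a2, the glutamate transporter of the same zone, was at 177, 0.677 and 183 CPM with DEN and 230.4, 192 and 164 CPM without. In each of the 3, replicate 2 was far below every other library, and DEN replicates 1 and 3 lay near the No DEN livers. The summed level of 18 tested pericentral genes was 218.5 CPM in replicate 2, 11320 and 12510 CPM in the other DEN livers and 13680 to 14730 CPM without DEN.

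The same library was high in Scd2, a desaturase of fetal liver and brain, at 7.91, 929 and 10.1 CPM with DEN against 2.22, 2.72 and 1.66 CPM without. Afp, alpha-fetoprotein, was at 1.08, 56.5 and 1.95 CPM with DEN and 0.518, 0.442 and 0.627 CPM without. Plagl1, an imprinted growth regulator, was at 0.787, 88.1 and 0.769 CPM with DEN and 0.518, 0.272 and 0.258 CPM without. In DEN replicates 1 and 3 all 3 genes were far below replicate 2, though still above every No DEN value. Among major urinary protein genes, a male-typical cluster of near-identical copies between which reads can be split, Mup22 was at 19080, 86.95 and 18650 CPM with DEN and 22230, 17930 and 21780 CPM without. Mup20 of the same cluster overlapped between the groups, with replicate 2 the lowest, at 12717, 5479 and 9630 CPM with DEN and 6375, 6984 and 9038 CPM without. Slc1a2, Plagl1 and Mup22 were chosen for their distance from the other libraries, and no test applies to them.

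Of the 354 genes that passed, replicate 2 held the most extreme of the 6 values in the direction of the change in 248, replicate 1 in 91 and replicate 3 in 15. All 354 had groups that did not overlap, as did 36.0% of all genes tested (18.4% higher and 17.6% lower with DEN). The number of calls changed when a single library of either group was left out. Leaving out a library also makes its group smaller, and the part of each in the lost calls was not tested. Fold changes could move little: that of Hspa1a was 4.27 without No DEN-WT replicate 3, against 4.56 with all libraries. They could also move much: that of Esm1 was 3.02 without DEN 30W-WT replicate 2, against 6.17. Without DEN 30W-WT replicate 1 the number of genes that passed was 6 (Ccnd2, Hspa1a, Mustn1, Nlrc5, Rbm3 and Zfand2a), and without replicate 3 it was 1038. It was 48, 11 and 0 without No DEN-WT replicates 1, 2 and 3, and without the last, 2409 genes were at an unadjusted p under 0.05. The calls of the fit with all libraries were therefore all lost without No DEN-WT replicate 3, and all but those 6 without DEN 30W-WT replicate 1. Of the fit without DEN 30W-WT replicate 2, leaving out a further library gave 0 (DEN 30W-WT replicate 1, with 1377 genes at an unadjusted p under 0.05) and 1 (DEN 30W-WT replicate 3), and 294, 308 and 24 without No DEN-WT replicates 1, 2 and 3. With only the 6 wild-type libraries in the fit no gene passed (2931 at an unadjusted p under 0.05), while DESeq2 called 1953 (15.1%).

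**Figure D2:**
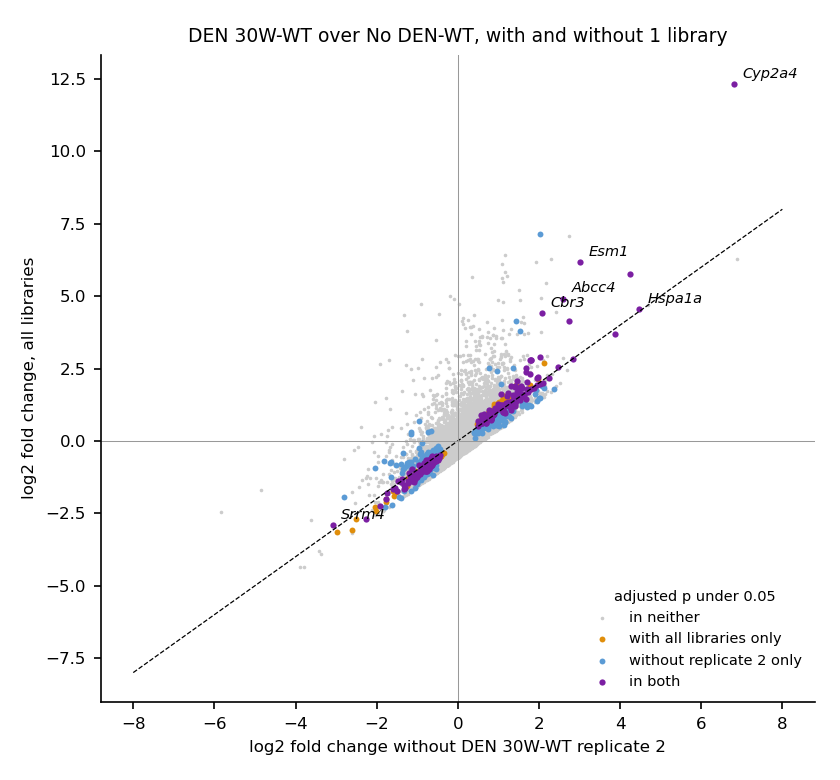
Log2 fold change, DEN 30W-WT over No DEN-WT, with all libraries (y axis) against that without DEN 30W-WT replicate 2 (x axis), 1 point per gene and a dashed line where both are equal; purple genes passed in both fits, orange with all libraries only and blue without replicate 2 only. Cyp2a4 lies at 12.32 and 6.80 and Esm1 at 6.17 and 3.02, above the line, while Hspa1a lies near it at 4.56 and 4.46.

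Cytosolic heat-shock proteins refold proteins and are induced together when heat shock factor 1 binds repeats of nGAAn in their promoters. Of 22 tested members of this group, 7 rose and none fell, and 6 rose without replicate 2, with a median log2 fold change of 0.53 and 0.59. Over all genes tested, 1.39% rose and 1.36% fell, or 1.71% and 1.7% without replicate 2. The median over all genes was 0.03, and 0.00 without replicate 2. Counts of list members here and below are to be read beside these values, and a single call is not a result about its list. Hspa1a, the inducible HSP70 (Entrez 193740, chromosome 17, 34969359 to 34972156, GRCm38.p6), was at 34.98, 33.1 and 19.8 CPM with DEN and 2.15, 0.883 and 0.7003 CPM without. The lowest DEN value was thus 9.22 times the highest No DEN value, and the rise was 4.56 ± 0.45 on the log2 scale (± SE; edgeR adjusted p = 0.0109), or 4.46 ± 0.45 without replicate 2 (edgeR adjusted p = 0.0056). Hspa1b, its near-identical neighbour (chromosome 17, 34956429 to 34959238), was at 299, 162 and 175 CPM with DEN and 33.6, 4.93 and 10.5 CPM without, and rose by 3.699 ± 0.59 (edgeR adjusted p = 0.0269). Reads of the pair can be split between the copies, and their sum was 334.4, 195.3 and 194.7 CPM with DEN, against 35.8, 5.81 and 11.2 CPM without.

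The RefSeq windows from 250 bases before to 50 bases after the starts of these genes (GRCm38.p6, minus strand, chr17:34972107-34972406 for Hspa1a and chr17:34959189-34959488 for Hspa1b) differ in 4 of 300 bases, which shows how alike the copies are at their start. Both are printed 5′ to 3′ with capitals on the 8 bases that match GAANNTTC, a pair of facing heat-shock units, 104 bases before the start.
Hspa1a: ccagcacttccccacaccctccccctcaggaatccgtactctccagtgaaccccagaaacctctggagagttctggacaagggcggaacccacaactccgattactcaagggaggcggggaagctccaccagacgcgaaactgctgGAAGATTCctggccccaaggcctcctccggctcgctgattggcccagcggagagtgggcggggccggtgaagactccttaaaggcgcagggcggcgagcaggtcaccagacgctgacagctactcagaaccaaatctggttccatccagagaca
Hspa1b: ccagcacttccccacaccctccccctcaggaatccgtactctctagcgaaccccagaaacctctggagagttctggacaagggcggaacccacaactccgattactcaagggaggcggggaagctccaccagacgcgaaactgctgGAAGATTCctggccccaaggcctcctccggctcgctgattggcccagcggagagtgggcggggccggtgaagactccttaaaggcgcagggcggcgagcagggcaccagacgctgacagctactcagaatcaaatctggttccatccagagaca
This pair, searched on both strands and chosen after the data were seen, occurs in 7.86% of 32851 RefSeq promoter windows and in 11 of the 17 tested heat-shock members that have a window. Such shares are of windows, whereas a member counts if any of its windows holds a match, so the units differ. The longer 3-unit element, in which NN and GAA follow the pair, occurs in 0.603% of windows and in 4 of those 17: Chordc1, Hspd1, Hspe1 and Hsph1. Of the 4, only Hsph1 rose. Its window (chr5:149636287-149636586, minus strand) is shown because it holds the longer match on the opposite strand, in capitals, after the start.
Hsph1: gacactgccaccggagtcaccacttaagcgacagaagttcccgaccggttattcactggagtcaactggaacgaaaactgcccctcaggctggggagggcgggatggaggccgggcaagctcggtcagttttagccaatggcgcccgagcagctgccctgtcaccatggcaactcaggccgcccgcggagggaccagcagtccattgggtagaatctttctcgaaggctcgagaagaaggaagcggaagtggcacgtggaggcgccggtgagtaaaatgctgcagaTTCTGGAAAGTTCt
A match is a string of letters and not a measured binding site.

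The other 5 members that rose were chaperones and co-chaperones. Dnajb1, the HSP40 partner of HSP70, was at 100.9, 81.5 and 78.95 CPM with DEN and 35.9, 22.9 and 33.7 CPM without, and rose by 1.498 ± 0.18 (edgeR adjusted p = 0.0132). Hsph1, an HSP110 nucleotide exchange factor, was at 251, 192 and 178 CPM with DEN and 84.1, 69.1 and 61.6 CPM without, and rose by 1.53 ± 0.35. Dnajb4, Hspa4l and Dnaja4 rose by 0.96 ± 0.201, 0.79 ± 0.18 and 1.25 ± 0.29. Without replicate 2 Hsph1 and Dnaja4 no longer passed (edgeR adjusted p = 0.0517 and 0.0623), and Bag3, a co-chaperone of selective autophagy, did, at 168, 72.7 and 139 CPM with DEN and 60.8, 30.3 and 32.9 CPM without. Hsph1, Dnaja4 and Bag3 fall outside the naming rule and were chosen after their values were seen. Zfand2a, which encodes an arsenite- and heat-inducible proteasome-associated protein and was not on the list, rose as well, at 27.5, 30.7 and 23.1 CPM with DEN and 11.1, 12.1 and 9.36 CPM without (1.32 ± 0.15). So did Rbm3, an RNA-binding protein known for induction by cold, at 45.7, 84.8 and 47.7 CPM with DEN and 22.5, 17.9 and 20.05 CPM without (1.56 ± 0.22). The constitutive and mitochondrial chaperones did not pass. Hspa8, the constitutive HSP70, was at 2715, 2680 and 2248 CPM with DEN and 2435, 1166 and 1666 CPM without, and Hspd1, the mitochondrial HSP60, at 608, 581 and 527 CPM with DEN and 411, 537 and 450.2 CPM without.

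**Figure D3:**
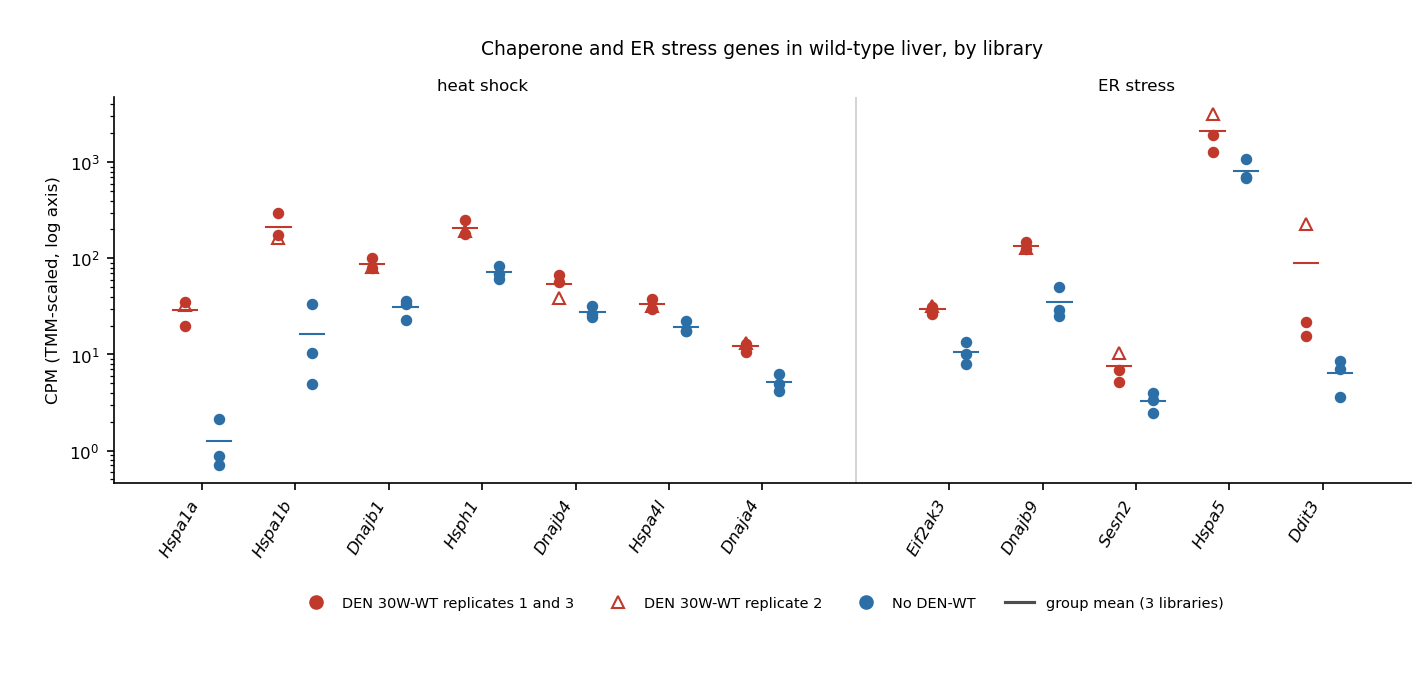
CPM (log axis) of 7 heat-shock and 5 endoplasmic reticulum stress genes in each wild-type library; red points are DEN 30W-WT (open triangle, replicate 2), blue points No DEN-WT, and short lines the means of 3 libraries. The groups do not overlap in any of the 12 genes, all of which passed with all libraries except Hspa5 and Ddit3. Every gene that passed had groups that did not overlap, as did 36.0% of all genes tested. Replicate 2 lies among the other DEN livers in Hspa1a but far above them in Ddit3, at 229.2 CPM.

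The endoplasmic reticulum answers misfolded protein through the sensors PERK, IRE1 and ATF6. In this group 3 of 31 tested members rose and none fell, and 4 rose without replicate 2 (median log2 fold change 0.52 and 0.36). Eif2ak3, which encodes the sensor PERK, was at 30.9, 31.8 and 26.6 CPM with DEN and 13.6, 8.05 and 10.2 CPM without, and rose by 1.49 ± 0.25 (edgeR adjusted p = 0.0274). Dnajb9, the reticulum co-chaperone ERdj4, was at 149, 129.7 and 124 CPM with DEN and 50.6, 29.2 and 25.4 CPM without, and rose by 1.94 ± 0.35. In both genes the 3 DEN livers were close to each other. Sesn2, a sestrin induced by the PERK branch, by ATF4 and by p53, rose by 1.204 ± 0.27 and was not past the threshold without replicate 2 (edgeR adjusted p = 0.0577).

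Ddit3, the transcription factor CHOP at the end of the PERK branch, was at 21.6, 229 and 15.7 CPM with DEN and 8.63, 3.63 and 7.11 CPM without. Its value in replicate 2 was 10.6 times the next highest, and it passed in the fit without that library (1.53 ± 0.31, edgeR adjusted p = 0.0302; 3.78 ± 0.902 and edgeR adjusted p = 0.0528 with it). Hspa5, the chaperone BiP (chromosome 2, 34772090 to 34776529), was at 1935, 3169 and 1274 CPM with DEN and 1075, 682 and 704 CPM without. The groups did not overlap, and it did not pass (1.37 ± 0.34, edgeR adjusted p = 0.0542). Calr, the lectin chaperone calreticulin, pointed the other way with groups that did not overlap either, at 951, 856 and 796 CPM with DEN and 1236, 1521 and 1717 CPM without (-0.78 ± 0.199, edgeR adjusted p = 0.0564); it was chosen after its values were seen.

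Hspa5 and Calr both hold the endoplasmic reticulum stress element, CCAAT and CCACG with 9 bases between them, searched on both strands, which occurs in 0.119% of promoter windows and in 9 of the 28 tested members with a window. The other 7 are Canx, Creld2, Derl3, Dnajc3, Hsp90b1, Pdia6 and Syvn1, and none of the 9 passed. Here too the share is of windows, whereas a member counts if any of its windows holds a match. The window of Hspa5 (chr2:34771840-34772139, plus strand) carries 1 match, in capitals, 65 bases before the start.
Hspa5: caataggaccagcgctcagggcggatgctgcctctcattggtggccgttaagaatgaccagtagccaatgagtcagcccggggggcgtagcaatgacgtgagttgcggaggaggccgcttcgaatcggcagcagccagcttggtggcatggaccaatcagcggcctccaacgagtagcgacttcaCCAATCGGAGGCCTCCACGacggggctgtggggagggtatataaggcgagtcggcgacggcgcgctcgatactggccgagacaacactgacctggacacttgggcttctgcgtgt

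Sinusoidal endothelial cells line the hepatic capillaries and clear macromolecules through scavenger receptors. Of 21 tested endothelial genes 11 rose and none fell, and 14 rose without replicate 2. Over all genes tested, 1.39% rose, and 1.71% without replicate 2. All 21 had positive values, with a median log2 fold change of 1.19, or 1.14 without replicate 2. Kdr, the main VEGF receptor, was at 31.7, 36.9 and 34.1 CPM with DEN and 14.4, 14.2 and 10.8 CPM without, and rose by 1.38 ± 0.199 (edgeR adjusted p = 0.0175). Mrc1, the mannose receptor, which sinusoidal endothelium shares with macrophages, was at 32.7, 18.2 and 26.02 CPM with DEN and 11.3, 11.99 and 10.1 CPM without, and rose by 1.21 ± 0.21, or 1.404 ± 0.17 without replicate 2 (edgeR adjusted p = 0.00655). Flt4, the lymphatic and sinusoidal VEGF receptor, was at 27.1, 39.1 and 23.5 CPM with DEN and 11.3, 8.15 and 5.82 CPM without, and rose by 1.83 ± 0.33. In all 3 genes every DEN liver lay above every No DEN liver, as in all genes that rose with all libraries. Stab2, a hyaluronan scavenger receptor, rose less, by 0.75 ± 0.16, at 42.4, 34.02 and 37.6 CPM with DEN and 18.9, 25.1 and 23.6 CPM without. Oit3, Clec14a and Cdh5 rose by 1.34 ± 0.204, 1.19 ± 0.22 and 1.65 ± 0.33, the last chosen after its values were seen.

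Lyve1, a hyaluronan receptor (chromosome 7, 110850607 to 110862953), was at 10.9, 32.9 and 7.88 CPM with DEN and 4.11, 1.800 and 0.995 CPM without, and rose by 2.91 ± 0.601. Esm1, a proteoglycan of sprouting endothelial tip cells (chromosome 13, 113209659 to 113218104), was at 2.79, 51.1 and 1.35 CPM with DEN and 0.3703, 0.204 and 0.184 CPM without. It rose by 6.17 ± 1.33 (edgeR adjusted p = 0.0421), and by 3.02 ± 0.48 without replicate 2 (edgeR adjusted p = 0.0177), whose value was 18.3 times the next highest. With limma-voom it did not pass (limma adjusted p = 0.182). The water channel gene Aqp1, expressed in endothelium and bile ducts, rose by 1.26 ± 0.18, at 94.8, 69.7 and 98.7 CPM with DEN and 44.2, 35.4 and 30.3 CPM without. In bulk tissue, more cells of a type and more RNA per cell cannot be told apart.

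Markers of other cell types moved along with the endothelial genes only in part. The summed CPM of the 21 endothelial genes was 576.4, 561.4 and 549.2 with DEN, against 298.1, 291.3 and 245.6 without. That of 25 hepatocyte identity genes did not overlap either, at 121600, 136600 and 108400 with DEN and 152800, 142000 and 164000 without; no member passed in the fit of all libraries. Of 18 tested Kupffer cell and macrophage genes none passed, with 18 positive values (median log2 fold change 1.23), or 16 without replicate 2 (median 1.44). Cd68, a lysosomal protein of macrophages, was at 11.98, 9.95 and 7.63 CPM with DEN and 1.63, 5.84 and 2.396 CPM without (edgeR adjusted p = 0.0744), and Adgre1, which encodes F4/80, at 14.2, 6.57 and 9.74 CPM with DEN and 0.555, 3.94 and 1.03 CPM without (edgeR adjusted p = 0.14). Clec4f, specific to Kupffer cells, overlapped between the groups, at 101.6, 14.9 and 66.8 CPM with DEN and 19.8, 66.03 and 31.5 CPM without. No DEN-WT replicate 2 was the highest of its group in all 3. The part of cell composition in the endothelial result was not tested.

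Lymphocyte, neutrophil, bile duct and pancreas markers were low, and of the genes tested on these lists only Bhlha15 passed. Of T and NK cell genes 8 of 14 were tested, with a summed CPM of 5.24 to 7.19 with DEN and 3.11 to 4.65 without, and of B and plasma cell genes 6 of 10, with 4.45 to 5.54 CPM with DEN and 3.39 to 5.33 without. Of neutrophil genes 4 of 10 were tested, with 3.27 to 7.67 CPM with DEN and 3.13 to 7.74 without, and of cholangiocyte genes 9 of 11, with 48.9 to 67.7 CPM with DEN and 44.6 to 62.3 without. Cd3e, Cd79a, S100a8 and Krt19 were each between 0.0501 and 1.89 CPM in all 6 livers. Only 3 of 14 pancreas genes were tested. Their summed CPM was 13.1 to 42.5 with DEN and 14.3 to 19.3 without. The basic helix-loop-helix gene Bhlha15, a factor of secretory cells that the unfolded protein response induces, rose by 5.75 ± 1.23, or 4.25 ± 0.997 without replicate 2, at 5.78, 27.3 and 2.63 CPM with DEN and 0.481, 0.03397 and 0.147 CPM without.

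Of 26 tested stellate cell, matrix and TGF-beta genes 2 rose. Bgn, the proteoglycan biglycan, was at 98.05, 92.9 and 87.5 CPM with DEN and 58.95, 65.6 and 43.8 CPM without (0.73 ± 0.17), and Tgfb1, the fibrogenic cytokine, at 9.35, 13.99 and 8.72 CPM with DEN and 5.04, 4.04 and 2.54 CPM without (1.46 ± 0.32). Neither passed without replicate 2 (edgeR adjusted p = 0.0517 and 0.0603). Fibrillar collagens were high in replicate 2 alone. Col1a1 was at 3.71, 81.8 and 3.04 CPM with DEN and 6.44, 3.16 and 2.91 CPM without, with a log2 fold change of 2.83 ± 1.06, and of -0.302 ± 0.403 once replicate 2 was left out. Col3a1 was at 13.6, 142 and 14.2 CPM with DEN and 14.4, 9.99 and 9.104 CPM without, and Sparc, a collagen-binding matrix protein, at 39.9, 214 and 40.02 CPM with DEN and 33.3, 31.96 and 24.5 CPM without. The median log2 fold change of the group was 0.86, and 0.25 without replicate 2.

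**Figure D4:**
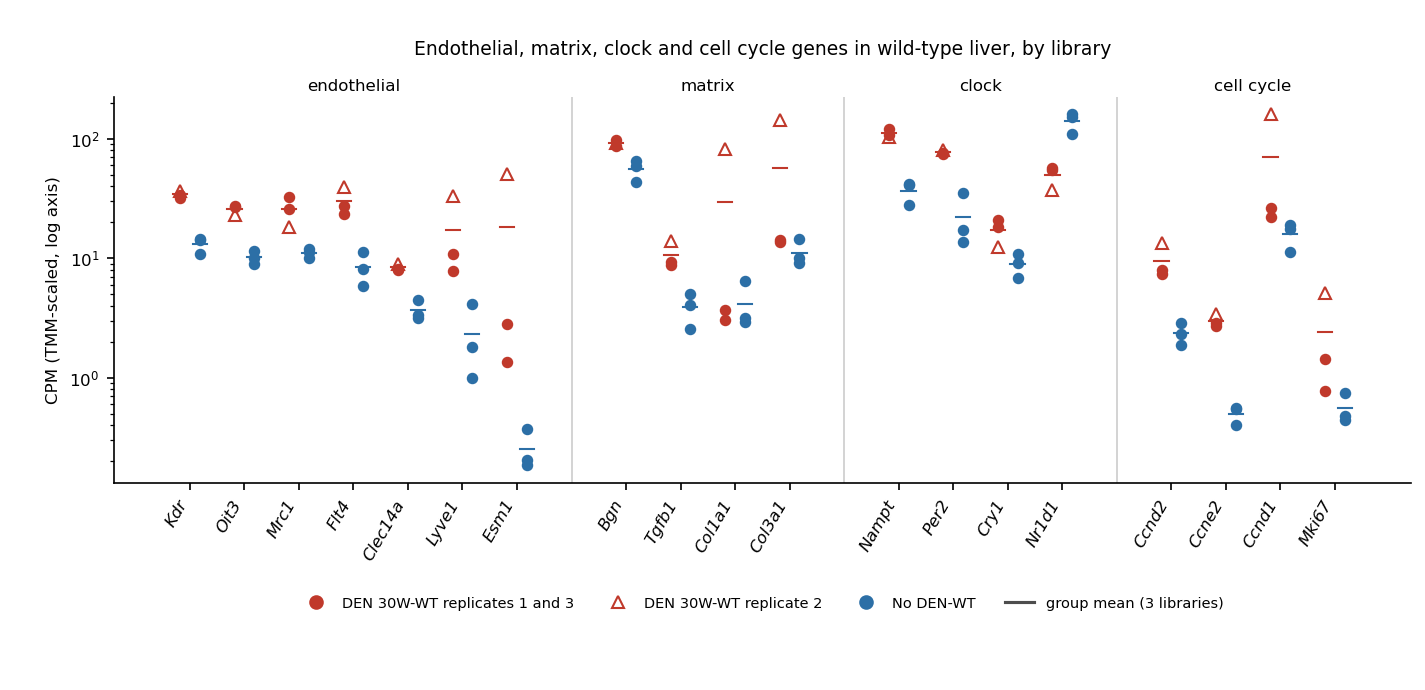
CPM (log axis) of endothelial, matrix, clock and cell cycle genes in each wild-type library; red points are DEN 30W-WT (open triangle, replicate 2), blue points No DEN-WT, and short lines the means of 3 libraries. The 3 DEN livers lie together in Kdr, Nampt and Per2, whereas replicate 2 lies alone in Esm1, Col1a1, Col3a1 and Ccnd1.

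Cytochrome P450 enzymes oxidise drugs, steroids and DEN itself. Of 26 tested P450 genes and regulators only Cyp2a4 rose and none fell, with 21 negative values, or 19 without replicate 2, and a median log2 fold change of -0.55 and -0.24. Cyp2a4, a female-biased steroid hydroxylase (Entrez 13086, chromosome 7, 26307192 to 26315088), was at 42.8, 10480 and 111 CPM with DEN and 1.33, 0.476 and 0.258 CPM without. It was at most 1.33 CPM in every No DEN liver and at least 42.8 CPM in every DEN liver, with replicate 2 at 94.8 times the next. Its increase was 12.32 ± 2.48 log2 units (edgeR adjusted p = 0.0361), or 6.800 ± 1.12 without replicate 2 (edgeR adjusted p = 0.0228). With limma-voom it was 9.21 and did not pass (limma adjusted p = 0.1002), and DESeq2 gave it a fold change of 12.31 and no adjusted p. Its near-identical neighbour Cyp2a5 shares reads with it and did not pass, at 1617, 6511 and 1276 CPM with DEN and 975, 382 and 490.1 CPM without. The sum of both was 1660, 16990 and 1387 CPM with DEN, against 976.6, 382.3 and 490.4 CPM without. Cyp2b9, another female-biased P450, was at 4.92, 298 and 8.36 CPM with DEN and 2.11, 0.679 and 1.25 CPM without and did not pass (edgeR adjusted p = 0.0546).

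Abcc4 and Abcb1a, both efflux pump genes, rose among 19 tested transporters of drugs and bile salts, and none fell with all libraries. Abcc4, which encodes the basolateral pump MRP4 and is female-biased in mouse liver (chromosome 14, 118482692 to 118707856), was at 6.53, 85.8 and 6.66 CPM with DEN and 1.296, 0.951 and 1.03 CPM without. DEN replicates 1 and 3 were nearly equal, and without replicate 2 the rise was 2.59 ± 0.27 (edgeR adjusted p = 0.0056), against 4.92 ± 0.97 with it (edgeR adjusted p = 0.0353). With all libraries it was 3.88 with limma-voom and did not pass (limma adjusted p = 0.1285), and DESeq2 gave it 4.90 and no adjusted p. Abcb1a, a P-glycoprotein gene also known from endothelium, was at 5.74, 7.22 and 3.81 CPM with DEN and 1.44, 0.985 and 1.29 CPM without, and rose by 2.17 ± 0.31. Abcb4, the canalicular phospholipid flippase, was at 193, 101.1 and 198 CPM with DEN and 287, 296 and 295 CPM without and fell without replicate 2 (-0.58 ± 0.13, edgeR adjusted p = 0.045; 0.0656 with all libraries). Abcb11, the bile salt export pump, was at 289.8, 157 and 258 CPM with DEN and 477, 445 and 497 CPM without and did not pass.

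Sex-biased liver genes are set by the pattern of growth hormone, through STAT5 and the male-biased repressor BCL6. Of 16 tested female-biased genes Cyp2a4 and Abcc4 rose, and of 27 male-biased genes Bcl6 fell. Over all genes tested, 1.39% rose and 1.36% fell, and the single male-biased call is not a result about that list. Bcl6 (chromosome 16, 23965050 to 23988866) was at 15.8, 4.54 and 9.97 CPM with DEN and 45.1, 32.3 and 53.4 CPM without, a fold change of -2.11 ± 0.46 (edgeR adjusted p = 0.0428), or -1.76 ± 0.43 and not past the threshold without replicate 2 (edgeR adjusted p = 0.0538). Elovl3, a male-biased and clock-controlled fatty acid elongase, was at 54.4, 0.201 and 96.8 CPM with DEN and 219, 588 and 563 CPM without; its groups did not overlap and it did not pass (edgeR adjusted p = 0.151). The median of the male-biased genes was -0.23 with all libraries and 0.23 without replicate 2, so its sign rests on that library. Their summed CPM was 13190 in replicate 2, 56290 and 47040 in the other DEN livers and 38600 to 44060 without DEN. That of the female-biased genes was 11110 in replicate 2, 798.6 and 756.5 in the other DEN livers and 1196 to 2914 without DEN. In the sum of the female-biased genes, DEN replicates 1 and 3 thus lay below every No DEN liver. The median of the female-biased genes was 0.40, and 0.28 without replicate 2.

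D-type and E-type cyclins drive the entry into S phase. Of 18 tested G1 genes 2 rose, with or without replicate 2. Ccnd2, cyclin D2 (chromosome 6, 127125162 to 127152188), was at 7.97, 13.3 and 7.402 CPM with DEN and 2.89, 2.31 and 1.88 CPM without, and rose by 2.02 ± 0.25 (edgeR adjusted p = 0.0132), or 1.704 ± 0.19 without replicate 2 (edgeR adjusted p = 0.0056). Ccne2, cyclin E2, was at 2.89, 3.38 and 2.69 CPM with DEN and 0.555, 0.543 and 0.405 CPM without, and rose by 2.57 ± 0.41. Ccnd1, cyclin D1, was by far the highest in replicate 2, at 22.3, 161 and 26.3 CPM with DEN and 18.9, 17.5 and 11.4 CPM without. Of 27 tested S phase and mitosis genes none passed, though 24 had positive values, or 21 without replicate 2, with a median of 1.07 and 0.29. Mki67, the proliferation antigen Ki-67, was at 1.44, 5.09 and 0.769 CPM with DEN and 0.741, 0.476 and 0.442 CPM without. Cdkn1a, the p53-induced inhibitor p21, overlapped between the groups, at 6.497, 30.1 and 9.16 CPM with DEN and 6.52, 25.6 and 39.7 CPM without, and of 29 p53 and DNA damage genes only Sesn2 rose.

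None of 22 tested oncofetal and liver tumour markers passed with all libraries. Their median log2 fold change was 1.47, and 0.80 without replicate 2, when Scd2 rose (2.03 ± 0.29, edgeR adjusted p = 0.0134; 7.16 ± 1.69 and edgeR adjusted p = 0.0519 with all libraries). Gpc3, the fetal proteoglycan glypican 3, was at 0.984, 5.97 and 0.769 CPM with DEN and 0.333, 0.713 and 0.147 CPM without. Akr1c18, an aldo-keto reductase that degrades progesterone, was at 0.853, 2.18 and 3.68 CPM with DEN and 0.111, 0.102 and 0.0369 CPM without and did not pass (4.68 ± 1.202). In Akr1c18 it was DEN replicate 3, not 2, that was highest.

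The transcription factor SREBP2 raises cholesterol synthesis when sterols are scarce, and INSIG proteins hold it back. Of 24 tested cholesterol genes 22 had positive values, or 19 without replicate 2. Insig2, which retains SREBP in the reticulum (chromosome 1, 121304353 to 121332662), was at 54.8, 33.2 and 64.4 CPM with DEN and 164, 271 and 297 CPM without, and its fold change was -2.27 ± 0.45 (edgeR adjusted p = 0.0353), or -2.03 ± 0.49 and not past the threshold without replicate 2 (edgeR adjusted p = 0.0536). Insig1, itself an SREBP2 target, lay the other way, at 294, 547 and 294 CPM with DEN and 142, 61.7 and 139 CPM without, and did not pass (edgeR adjusted p = 0.0596).

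Of 25 tested genes of fatty acid synthesis and desaturation none passed with all libraries, and Lpin1, Scd2 and Elovl6 rose without replicate 2. The median was 0.66, and 0.73 without that library. Fasn, fatty acid synthase, was at 715, 719 and 853 CPM with DEN and 415, 183 and 265 CPM without; the groups did not overlap, and it did not pass (1.41 ± 0.43, edgeR adjusted p = 0.0765). Plin2, the coat protein of lipid droplets, was at 316, 555 and 367 CPM with DEN and 975, 907 and 770.4 CPM without, and fell without replicate 2 (-1.37 ± 0.25, edgeR adjusted p = 0.0251; 0.0558 with all libraries). Of 28 fatty acid oxidation genes none passed, with 24 negative values, or 23 without replicate 2.

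Periportal and urea cycle genes had 18 negative values among 21 tested (median -0.66), and Cth fell. Cth, the cystathionine gamma-lyase that makes cysteine (chromosome 3, 157894248 to 157925081), was at 223, 100.7 and 279 CPM with DEN and 544, 596 and 749.7 CPM without. Every DEN liver lay below every No DEN liver, as in all genes that fell with all libraries, and replicate 2 was the lowest. The fold change was -1.65 ± 0.36 (edgeR adjusted p = 0.0425), or -1.33 ± 0.27 without replicate 2 (edgeR adjusted p = 0.0325). Cbs, the preceding enzyme, was at 224, 69.8 and 299.9 CPM with DEN and 557, 697 and 729 CPM without, and fell without replicate 2 (-1.33 ± 0.22, edgeR adjusted p = 0.0194; -1.74 ± 0.42 and edgeR adjusted p = 0.0531 with all libraries).

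Of 18 tested pericentral genes none passed with all libraries, and Oat and Lhpp fell without replicate 2. Oat, ornithine aminotransferase, was at 728, 8.099 and 1258 CPM with DEN and 2117, 2259 and 1797 CPM without, so that the 2 other DEN livers also lay below the No DEN livers (-1.05 ± 0.25 without replicate 2, edgeR adjusted p = 0.0468); it was chosen after its values were seen. Of 14 bile acid synthesis genes none passed with all libraries, and Amacr, a racemase of side-chain shortening, and Acox2 fell without replicate 2. Amacr was at 97.7, 41.8 and 118 CPM with DEN and 156, 181 and 182 CPM without (-0.68 ± 0.14 without replicate 2). Of 22 apolipoprotein and lipid export genes Apof fell. Apof, known in humans as lipid transfer inhibitor protein, was at 408, 456 and 473 CPM with DEN and 801, 716 and 794 CPM without, with DEN livers close to each other, and a fold change of -0.79 ± 0.15 (edgeR adjusted p = 0.0352).

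Acute phase genes are switched on in hepatocytes by interleukin 6 through STAT3, and SOCS3 ends the signal. Of 31 tested members 1 rose and 1 fell, and 23 had negative values (median -0.91, and -0.77 without replicate 2). Socs3 (chromosome 11, 117966079 to 117970336) was at 6.07, 3.99 and 6.697 CPM with DEN and 45.1, 16.8 and 47.3 CPM without. The DEN livers were close together and the No DEN livers spread, and the fold change was -2.71 ± 0.58 (edgeR adjusted p = 0.0421), or -2.51 ± 0.69 and not past the threshold without replicate 2 (edgeR adjusted p = 0.0725). Stat3 was at 83.5, 81.01 and 71.97 CPM with DEN and 176, 170.2 and 175 CPM without and did not pass (edgeR adjusted p = 0.0627). The fibrinogen gene Fgg was at 2277, 1712 and 1817 CPM with DEN and 5170, 4473 and 5074 CPM without and did not pass either (edgeR adjusted p = 0.062). In both, the 3 libraries of a group were close to each other and the groups did not overlap. Saa1, serum amyloid A, varied widely without DEN, at 36.9, 1.65 and 25.6 CPM with DEN and 728, 52.5 and 188 CPM without.

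Vcam1, an adhesion molecule of endothelium and Kupffer cells, rose, at 22.4, 14.9 and 13.4 CPM with DEN and 3.07, 6.59 and 2.84 CPM without (2.02 ± 0.34, edgeR adjusted p = 0.0289). Of 26 tested interferon response genes Irf9 fell, and Irf9 and Isg15 fell without replicate 2. Irf9, the DNA-binding part of the type I interferon complex, was at 28.5, 18.2 and 24.7 CPM with DEN and 51.2, 47.1 and 42.1 CPM without (-0.98 ± 0.19, edgeR adjusted p = 0.0349). Nlrc5, the transactivator of MHC class I genes, was at 12.6, 8.299 and 12.1 CPM with DEN and 23.5, 24.9 and 27.97 CPM without, and fell with or without replicate 2 (-1.21 ± 0.16, edgeR adjusted p = 0.015; -1.04 ± 0.12 without it).

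Clock genes cycle over the day, with Nr1d1, Per and Cry genes peaking at different hours, and the labels do not state the hour at which livers were taken. Of 23 tested members 2 rose and 1 fell. Nr1d1, the repressor REV-ERB alpha (chromosome 11, 98767932 to 98775377), was at 54.4, 37.1 and 56.4 CPM with DEN and 159.7, 109 and 152 CPM without, a fold change of -1.51 ± 0.29 (edgeR adjusted p = 0.0352). Per2 was at 76.7, 79.96 and 74.3 CPM with DEN and 35.4, 13.7 and 17.1 CPM without, and rose by 1.801 ± 0.39 (edgeR adjusted p = 0.0421); it did not pass without replicate 2 (edgeR adjusted p = 0.0544). Nampt, a clock-controlled enzyme of NAD synthesis (chromosome 12, 32820335 to 32853369), was at 121, 104 and 107 CPM with DEN and 40.99, 41.6 and 28.05 CPM without, and rose by 1.59 ± 0.29. In Nampt and Per2 the DEN livers, replicate 2 included, lay closer together, as the ratio of the highest to the lowest, than the No DEN livers. Cry1 was at 20.7, 12.4 and 18.4 CPM with DEN and 6.85, 9.205 and 10.9 CPM without and rose without replicate 2 (1.12 ± 0.21; edgeR adjusted p = 0.0564 with all libraries). Dbp, a clock output gene with a large daily swing, overlapped between the groups, at 53.2, 125 and 67.5 CPM with DEN and 124, 38.2 and 35.2 CPM without. Whether collection time differed between the groups was not tested.

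Few genes of large housekeeping complexes passed, as was so over all genes tested (2.74%). Of 28 tested proteasome genes Psmd4, a ubiquitin receptor of the complex, fell, at 101.7, 114 and 112 CPM with DEN and 176, 157 and 175 CPM without (-0.63 ± 0.14, edgeR adjusted p = 0.0428; -0.36 and not past the threshold with scaling by library size alone, edgeR adjusted p = 0.146), and Psmc2 and Psmc4 fell as well without replicate 2. All 28 had negative values without replicate 2, with a median of -0.37. Of 32 nuclear-encoded oxidative phosphorylation genes none passed, with 30 negative values, or 27 without replicate 2, and a median of -0.50 and -0.29. Of 34 cytosolic ribosomal protein genes none passed, with a median of -0.07, or -0.19 without replicate 2. Scaling by library size alone, in place of TMM, put the median of all genes at 0.293 and that of the ribosomal genes at 0.20, so directions of this size are relative to the median gene.

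**Figure D5:**
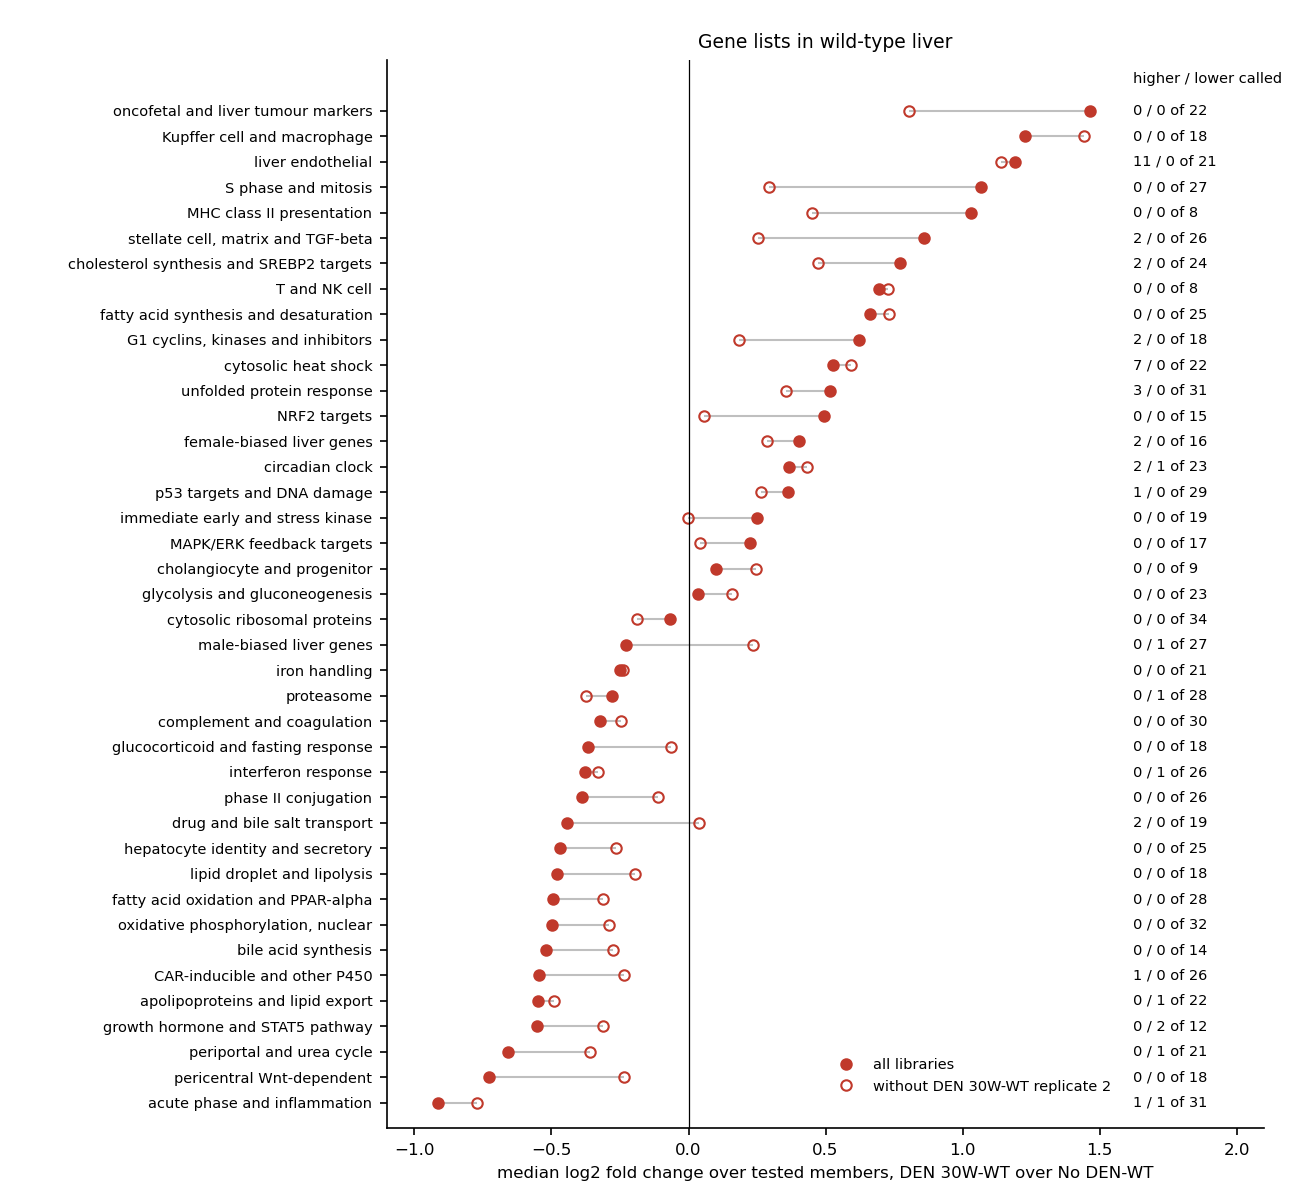
Median log2 fold change over the tested members of each gene list with at least 8 tested, DEN 30W-WT over No DEN-WT, with all libraries (filled) and without DEN 30W-WT replicate 2 (open); the column at the right counts members that passed higher and lower with all libraries. Heat-shock and endothelial medians move little between the 2 fits, whereas the oncofetal, S phase, matrix and pericentral medians lie nearer to 0 without replicate 2.

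The largest decreases outside these groups were in genes of varied function. Srrm4, a splicing regulator best known from neurons (chromosome 5, 116439268 to 116592562), was at 1.44, 2.41 and 2.08 CPM with DEN and 22.3, 10.4 and 12.3 CPM without (-2.92 ± 0.46, edgeR adjusted p = 0.0261), and it fell without replicate 2 as well (-3.08 ± 0.55). Mrnip, a cofactor of DNA break repair, was at 1.21, 0.777 and 1.09 CPM with DEN and 6.59, 9.31 and 11.5 CPM without (-3.15 ± 0.62); it did not pass without replicate 2 (edgeR adjusted p = 0.0562). Tymp, thymidine phosphorylase, was at 16.3, 4.31 and 21.1 CPM with DEN and 66.7, 93.99 and 109 CPM without (-2.698 ± 0.58). The lowest No DEN value was 4.304, 5.43 and 3.17 times the highest DEN value in Srrm4, Mrnip and Tymp. Leap2, the liver peptide that blocks the ghrelin receptor, fell by 2.24 ± 0.42 and Slc8b1, the mitochondrial sodium-calcium exchanger (chromosome 5, 120511168 to 120534024), by 1.796 ± 0.22. Rab30, Mustn1, Sgk2 and Ccdc162 fell too, with log2 fold changes of -2.42 ± 0.56, -2.01 ± 0.33, -2.002 ± 0.400 and -1.902 ± 0.43; of these, only Mustn1 passed without replicate 2.

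Among genes that passed in both fits, the decreases with the smallest p without replicate 2 included Agt, Rab17 and Grpel2. Their fold changes below are those with all libraries. Agt, angiotensinogen, a secreted hepatocyte product, was at 449.6, 400.4 and 487 CPM with DEN and 908, 947 and 1037 CPM without (-1.11 ± 0.16, edgeR adjusted p = 0.0194). Rab17, an epithelial trafficking GTPase, was at 8.33, 5.04 and 9.32 CPM with DEN and 17.8, 21.9 and 22.2 CPM without (-1.45 ± 0.21). Grpel2, a mitochondrial co-chaperone, was at 26.3, 33.3 and 29.6 CPM with DEN and 56.1, 72.4 and 64.6 CPM without (-1.11 ± 0.16). In these 3 genes every DEN liver lay below every No DEN liver, as in all genes that fell with all libraries. B3gat3, Gramd1c, H2bc4, Abhd17c and Ttc32 fell by 0.80 to 1.03 on the log2 scale, all with or without replicate 2.

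Among further increases, Mthfd1l, the mitochondrial one-carbon enzyme, was at 3.15, 20.3 and 3.72 CPM with DEN and 0.6295, 0.543 and 0.369 CPM without (4.13 ± 0.72, and 2.73 ± 0.35 without replicate 2). Akr1c19, an aldo-keto reductase, was at 97.5, 53.5 and 89.7 CPM with DEN and 40.3, 36.99 and 36.3 CPM without (1.08 ± 0.21, and 1.31 ± 0.15 without replicate 2). Replicate 2 was the highest DEN liver in Mthfd1l and the lowest in Akr1c19. Cbr3, a carbonyl reductase, Aph1b, a gamma-secretase subunit, and Vav3, a guanine nucleotide exchange factor, rose by 4.42 ± 1.010, 2.81 ± 0.55 and 2.78 ± 0.54, and by 2.07 ± 0.43, 1.79 ± 0.31 and 1.81 ± 0.31 without replicate 2. All 3 passed in both fits, at a mean of 0.274 to 0.701 CPM without DEN.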

How the data were processed

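Liver RNA of 6 wild-type mice was read by RNA-seq. Per the file headers, each group's deposited table gives a read count and a TPM per gene and library. The read counts that the authors deposited are expected counts: in each library 6.64% to 7.12% are fractional. TPM, a share scaled by transcript length and also deposited, was used only for genes listed in 1 of the wild-type tables. The submitters' processing notes name the build GRCm38.p6 and the tools RSEM 1.3.1, HISAT2 2.2.1, DESeq2 1.4.5 and Bowtie2 2.3.4.3. What each tool did is not given in the sources used here, nor is strandedness, so overlapping genes may share reads. In the wild-type tables no listed TPM is below 0.01; how genes came to be listed was not tested, so an unlisted gene was given no value.

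Counts were rounded, scaled by TMM and filtered with filterByExpr. The 13371 genes listed in all 4 tables, which hold at least 99.8% of each library's counts, entered 1 quasi-likelihood fit of all 12 libraries (edgeR 4.0.16, 1 coefficient per group, 8 residual degrees of freedom), so that the spread is shared with the knockout groups. Adjusted p is Benjamini-Hochberg over all genes tested, and 0.05 is the threshold. Log2 fold changes are DEN 30W-WT over No DEN-WT, ± SE. Replicates differed well beyond counting error (27.9 to 785.1 for chi-square over its degrees of freedom), and all were kept. The steps were tested on simulated data over 12909 genes: 35% of genes changed 2-fold and 82% of genes changed 4-fold were called, with 0.0708% of unchanged genes. Apart from these changes, all simulated libraries shared the same mean and dispersion of each gene. None was made to stand apart as DEN 30W-WT replicate 2 did, so these rates may not hold for the real libraries. Alternatives were DESeq2 1.42.0, limma-voom (limma 3.58.1) with and without quality weights, other scalings and filters, only the wild-type libraries, unrounded counts, a replicate block and leaving out each library.

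Genes were named by rule: of genes that passed, with groups that do not overlap and an average level no lower than 1 CPM, the 12 that rose most and the 12 that fell most; the 10 smallest p in each direction without DEN 30W-WT replicate 2 among genes that passed in both fits; up to 5 members of each list described; and fixed markers. Predicted gene models were skipped, and a few further genes it picks are left out here. Genes outside the rule are marked in the text, and genes named only as the members of a count stand for that count. The comparison, lists and rule were chosen with earlier results of these data known. Promoter windows and gene positions are those of RefSeq, GRCm38.p6.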

Additional observations from a re-analysis of the deposited data

How the results depend on the processing

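The count of 354 genes depended on the fit. It was 1953 with DESeq2, 1379 with library size scaling (92.4% higher, against 50.6% with TMM), 4242 with limma-voom and library quality weights, 0 with only the wild-type libraries (0 too with the genes of both wild-type tables) and 1427 with these but without DEN 30W-WT replicate 2. It was 308 to 429 with limma-voom, RLE factors, unrounded counts, other filters and a replicate block. The count of 443 without DEN 30W-WT replicate 2 was 1480 with DESeq2, 676 with library size scaling, 3938 with quality weights, and 1427 and 1407 with only the wild-type libraries, over the genes of all 4 tables and of both wild-type tables. Leaving out 1 library in turn gave 0 to 1038 genes in place of 354 and 0 to 308 in place of 443. The causes were not tested. Of 64 genes with a fold change in the text that passed, all lost their call with only the wild-type libraries, 3 with library size scaling (Apof, Psmd4 and Ttc32), 1 with RLE factors (Dnaja4), 4 with no filter (Dnaja4, Bgn, Rab30 and Cbr3), 9 with a replicate block (Dnaja4, Sesn2, Stab2, Esm1, Cyp2a4, Abcc4, Rab30, Ccdc162 and Cbr3) and 14 with limma-voom (Hsph1, Sesn2, Lyve1, Esm1, Bhlha15, Bgn, Tgfb1, Cyp2a4, Abcc4, Socs3, Mthfd1l, Cbr3, Aph1b and Vav3); DESeq2 gave no adjusted p for Cyp2a4 and Abcc4, and the others passed with it. Of the 84 genes so named, Col1a1 turned round, with 2.83 in all libraries and -0.30 both without DEN 30W-WT replicate 2 and with only the wild-type libraries and without it; it ranged from -0.30 to 3.35 with 1 library left out and never passed. At 3 mice a group, the simulated recovery of 2-fold changes limits what a missing call can show. That simulation held no library that was made to stand apart, so the recovery in the real libraries may differ.

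Libraries of the same replicate number were treated as unpaired. Their deviations from the group mean correlated at 0.00129, 0.0725 and 0.0972, and those of libraries with different numbers at -0.128 to 0.048. Deviations from a group mean are bound to each other, so these values cannot exclude a pairing. With the number as a replicate block, 429 genes passed in place of 354, and 736 in place of 443 without DEN 30W-WT replicate 2.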

Other observations

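Of the genes listed in any table, 512 are listed for DEN 30W-WT and not for No DEN-WT, and 362 the other way. A gene that a group's table does not list has no value there, so these genes were not tested. Among those listed only with DEN, Cdkn2a, which encodes the cell cycle inhibitors p16 and p19ARF, was at 0.98, 6.12 and 0.60 TPM in DEN 30W-WT replicates 1, 2 and 3. Spink1, a trypsin inhibitor seen in liver cancer, was at 1.14, 48.7 and 1.33 TPM, and Phlda2, an imprinted growth regulator, at 0.81, 17.1 and 0.87 TPM. In all 3 genes replicate 2 was the highest. Among those listed only without DEN, Mogat1, which makes diacylglycerol, was at 5.33, 4.53 and 3.48 TPM in No DEN-WT replicates 1, 2 and 3. Slc22a3, an organic cation transporter, was at 2.33, 2.32 and 1.72 TPM, and Lgr5, a Wnt-pathway receptor of pericentral hepatocytes, at 0.61, 0.95 and 0.82 TPM. In these 3 genes the highest No DEN liver was less than double the lowest. All 6 genes were chosen after their values were seen, and the levels in the other group are not analysed here.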
